A study of Mus musculus with 68 samples.

Results

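The 44 collagen genes described here were the protein-coding entries of the count table whose symbol reads Col, a number, the letter a and a number, out of 56748 genes in all. They comprised 11 fibrillar collagens, 6 chains of basement membrane collagen IV, 6 chains of collagen VI, 9 FACIT collagens (fibril-associated collagens with interrupted triple helices), 3 hexagonal network collagens, 4 transmembrane collagens, 2 multiplexins and 3 others. Their RNA was measured by sequencing of polyadenylated RNA in heart, lung, kidney and liver, first to set the organs side by side and then to ask what a single injection of Egf (epidermal growth factor, the ligand of Egfr) did within hours. All mice were wild type C57BL/6J females aged 10 weeks. Each organ had 4 libraries from mice given 1 mg/kg Egf in PBS and collected after 2 h, 4 collected after 6 h, 3 from mice given PBS alone at each of these times (vehicle), and 3 from untreated mice, which makes 17 libraries per organ, 68 in all and 20 groups. Injections went into the retro-orbital sinus under isoflurane, so the vehicle and Egf mice shared anaesthesia and injection, which the untreated mice did not have. The labels name no animal per library, so p-values measure the spread between these libraries. Library descriptions carry the same running numbers in the same group order in every organ. Whether equal numbers mean the same mouse is not stated. The main fit over organs treated libraries as separate, and a block by group and replicate number (animal block) is given only as an alternative.

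Collagens are secreted proteins made of 3 chains wound into a triple helix, and each chain has its own gene. Fibrillar collagens build the tensile fibers of connective tissue, collagen IV forms the sheet-like network of basement membranes under epithelium and around vessels, and collagen VI forms beaded filaments next to cells. Fibroblasts and related mesenchymal cells are the main source of fibrillar collagens, endothelial and epithelial cells contribute much of the collagen IV, and hepatocytes are a known source of collagen XVIII, whose C-terminal fragment is endostatin.

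Libraries held 13271813 to 24972005 counted reads, of which 9296 to 109437 fell on collagen genes. Each organ showed its defining parenchymal markers: the summed cardiomyocyte markers had a median of 38400 CPM (counts relative to the library total) in heart and at most 666 CPM elsewhere, and the summed alveolar and airway markers had 53200 CPM in lung and at most 411 CPM elsewhere. The kidney tubule markers had a median of 22400 CPM in kidney and the hepatocyte markers 109000 CPM in liver. Some libraries also carried RNA of other tissues. Skeletal muscle markers summed to 3082 CPM in lung Egf 6 h replicate 4 and at most 141.4 CPM in other lungs. Adrenal markers summed to 177.7 CPM in liver Egf 2 h replicate 1 and at most 6.25 CPM in other livers. Adipocyte markers reached 840.1 and 472.8 CPM in heart Egf 2 h replicates 2 and 3 (other hearts at most 358.3 CPM). Carrying another organ was judged below only by markers of the organs studied, so these libraries were not counted. Hepatocyte markers summed to 12410 CPM in heart Egf 6 h replicate 3, 13990 CPM in untreated heart replicate 1, 11990 CPM in untreated heart replicate 3 and 25550 CPM in lung Egf 6 h replicate 3, against organ medians of 918.9 CPM in heart and 354.9 CPM in lung. Kidney tubule markers stood at 699.8 CPM in heart Egf 6 h replicate 1, 2870 CPM in heart vehicle 2 h replicate 1, 759.5 CPM in heart vehicle 6 h replicate 2 and 1100 CPM in untreated heart replicate 2, against a heart median of 11.93 CPM. Collagens that the liver or kidney expresses highly are given below with these libraries named. Hepatocyte markers varied in the other hearts as well, from 32.87 CPM in vehicle 2 h replicate 2 to 8736 CPM in Egf 2 h replicate 3.

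Lung held the most collagen RNA per library, and liver, with the lowest median, held a different mixture. Levels between genes and organs are given in TPM, in which counts are divided by gene length and each library is scaled to the same sum. Mitochondrial genes are part of that sum, so a larger share for them lowers the TPM of all other genes. They took 12 to 27.6% of reads in heart, 3.6 to 7.08% in kidney, 1.8 to 3.8% in liver and 1.24 to 2.08% in lung. Their part in the organ differences in TPM was not tested. Over the 17 libraries of each organ the 44 genes summed to 902.6 to 1922 TPM in lung (median 1438), 292.5 to 664.6 TPM in kidney (median 508.2), 200.5 to 547.7 TPM in heart (median 352.8) and 179.1 to 451.1 TPM in liver (median 241.2). The lung range lay above those of the other organs, which overlapped one another. In untreated lung 26 collagens averaged at least 1 TPM, compared with 22 in kidney, 20 in heart and 14 in liver, and 13 did so in every organ. The highest untreated mean was in lung for 31 of the 44 genes, in kidney for 8, in heart for 4 (Col5a3, Col6a6, Col15a1 and Col22a1) and in liver for 1, Col18a1. These are orders of TPM means, not tests, and they include 5 genes under 0.1 TPM in every untreated organ. The same count over all genes is not given. With library totals the median log2 fold change of all genes was itself 1.54 for lung over liver and 0.86 for lung over heart. Many of the 31 did not pass in the scaled test below against the organ with the next highest mean. Over heart these were Col2a1, Col3a1, Col5a1, Col10a1, Col20a1 and Col28a1, and over kidney Col6a4, Col6a5 and Col25a1. Col9a2, Col11a1 and Col11a2 had the opposite sign over heart and did not pass, and Col9a1 and Col9a3 were not tested. In bulk tissue, fewer cells of a type and less RNA per cell cannot be told apart. Beside these levels, the summed fibroblast markers had medians of 1130 CPM in lung, 768 CPM in heart, 116 CPM in kidney and 92.1 CPM in liver, and the endothelial markers 2880, 534, 318 and 90.5 CPM in the same order of organs. The part of cell numbers in the organ differences was not tested.

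**Figure D1:**
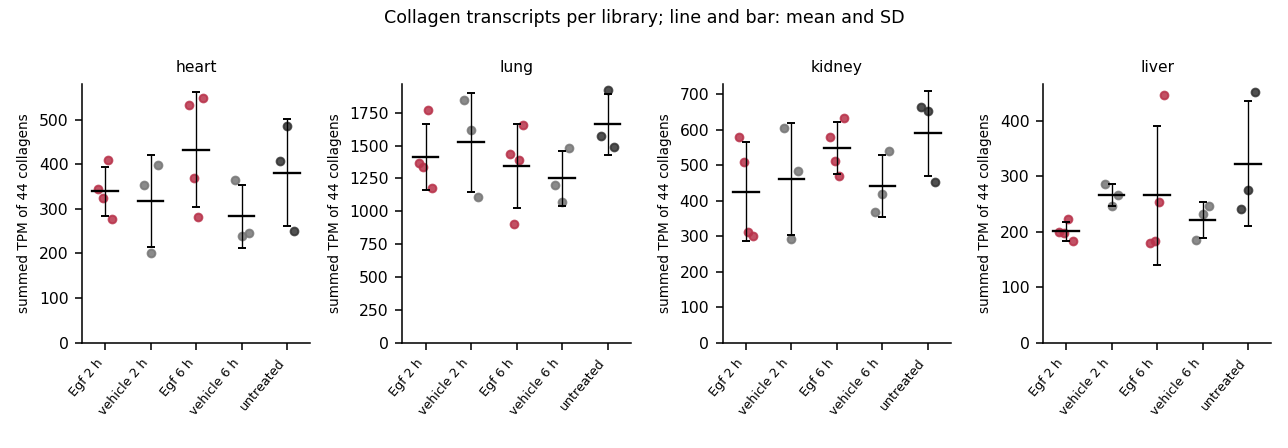
Summed TPM of the 44 collagen genes in each library (points) by organ (panels with their own y axis) and group, with a line at the group mean and a bar for the SD (n = 4 with Egf, 3 otherwise). Lung libraries sit between 902.6 and 1922 TPM and the other organs at or below 664.6 TPM.

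Split by class, collagen IV took the largest share in 3 organs and the multiplexins in the fourth. Collagen IV made up 45.5 ± 3.26% of collagen TPM in untreated lung, 53.3 ± 1.01% in kidney and 36.4 ± 4.79% in heart, but 5.82 ± 0.0608% in liver (SD, n = 3 each). The multiplexins, of which Col18a1 was the main one in liver, made up 80.3 ± 1.35% in liver, 20.5 ± 1.15% in kidney and 12.7 ± 2.41% in heart. Fibrillar collagens held 28.4 ± 1.94% in lung and 30.1 ± 1.79% in heart, compared with 13.7 ± 1.17% in kidney and 6.25 ± 1.72% in liver. Replicates of an organ were close to each other in these shares, with the largest SD in heart.

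**Figure D2:**
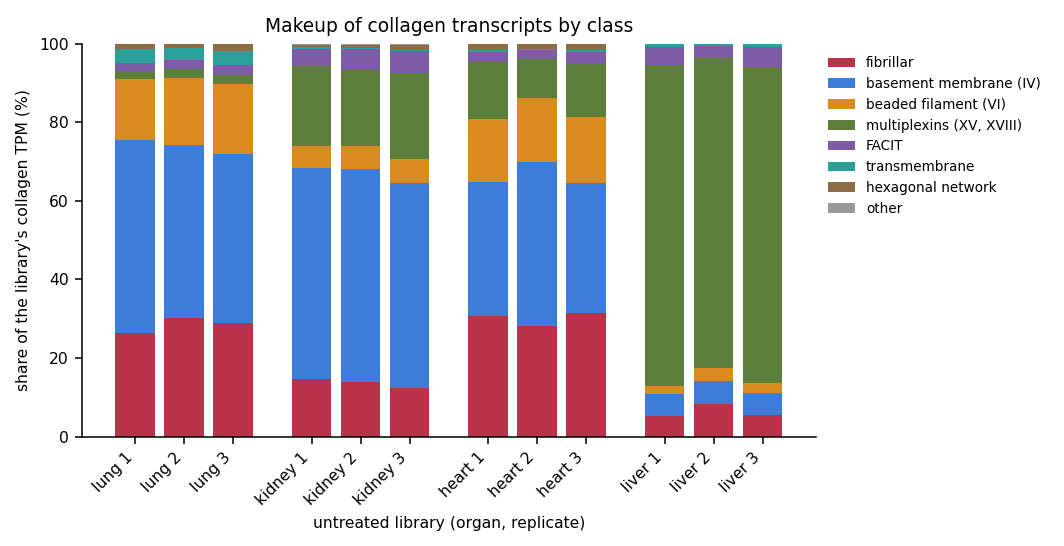
Share of summed collagen TPM (percent) taken by each collagen class in the 3 untreated libraries of each organ, as stacked bars. The liver bars are mostly multiplexin (mean 80.3%), while collagen IV is the largest block in lung, kidney and heart.

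Of the 40 collagens that passed the filter on low counts in the fit over all 68 libraries, 35 differed among the 4 untreated organs by edgeR's quasi-likelihood test at an adjusted p under 0.05, a share of 87.5% that lies near the 90.5% of all genes tested. The other 4 of the 44 collagens had too few reads to be tested. Against liver, 27 collagens were higher and 2 lower in lung, where 71% of all genes were called, 38.4% higher and 32.6% lower. In heart 26 were higher and 3 lower than in liver (all genes 61.9%, 34.5% higher and 27.3% lower), and in kidney 20 were higher and 3 lower than in liver (56.4%, 32.6% and 23.8%). Lung had 24 higher and 4 lower than kidney (63.8%, 28.7% and 35.1%) and 20 higher and 6 lower than heart (66.3%, 32.3% and 34.1%). Heart had 15 higher and 9 lower than kidney (61.7%, 31.5% and 30.2%). The median log2 fold change of the tested collagens was 3.63 for lung over liver, 2.36 for heart over liver and 1.36 for kidney over liver, compared with 0.23, 0.18 and 0.15 over all genes tested. For lung over kidney it was 1.66 and for lung over heart 1.01, with all genes at -0.10 and 0.00, and for heart over kidney 0.59 with all genes at 0.00. Scaling between organs matters here. Without TMM scaling the median of all genes moved by 1.31 for lung over liver, 0.88 for kidney over liver, 0.87 for lung over heart, 0.43 for heart over liver, 0.42 for lung over kidney and -0.42 for heart over kidney, and the calls were then 27 higher and 3 lower for lung over heart, and 11 higher and 12 lower for heart over kidney. Fold changes between organs below are TMM-scaled and can therefore be smaller than, or opposed to, the order of the TPM values.

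**Figure D3:**
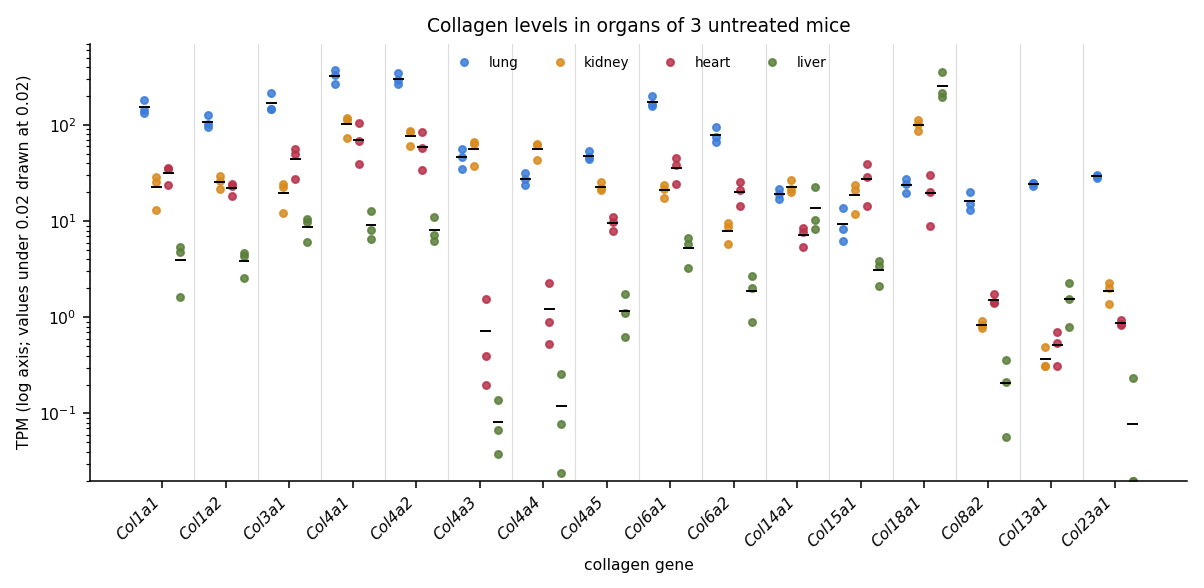
Levels (TPM, log axis) of 16 collagens in the 3 untreated libraries of each organ, with each point a library and each line the mean of 3; values under 0.02 TPM are drawn at 0.02. Col18a1 is highest in liver, Col4a3 and Col4a4 are high in lung and kidney, and Col1a1, Col3a1 and Col6a1 are highest in lung.

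Col4a1 and Col4a2 encode the chains that assemble into the collagen IV found in nearly every basement membrane. The deposited table places Col4a1 (ENSMUSG00000031502) on the minus strand at chr8:11248423-11362826 and Col4a2 (ENSMUSG00000031503) on the plus strand at chr8:11362805-11499287 of mm39, head to head, with 22 bases in common. Because their starts share 1 stretch of DNA, their RefSeq promoter windows (250 bases before to 50 after the start, build GRCm38.p6, each on its gene's own strand) are shown, with the 78 bases common to both in capitals:

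Col4a1, chr8:11312777-11313076, minus strand: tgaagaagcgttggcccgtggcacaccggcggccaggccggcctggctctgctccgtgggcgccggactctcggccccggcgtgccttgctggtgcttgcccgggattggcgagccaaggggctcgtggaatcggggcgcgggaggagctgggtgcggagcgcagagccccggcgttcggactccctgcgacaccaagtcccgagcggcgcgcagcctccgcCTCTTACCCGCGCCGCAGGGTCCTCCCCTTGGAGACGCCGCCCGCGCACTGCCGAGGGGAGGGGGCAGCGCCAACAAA

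Col4a2, chr8:11312555-11312854, plus strand: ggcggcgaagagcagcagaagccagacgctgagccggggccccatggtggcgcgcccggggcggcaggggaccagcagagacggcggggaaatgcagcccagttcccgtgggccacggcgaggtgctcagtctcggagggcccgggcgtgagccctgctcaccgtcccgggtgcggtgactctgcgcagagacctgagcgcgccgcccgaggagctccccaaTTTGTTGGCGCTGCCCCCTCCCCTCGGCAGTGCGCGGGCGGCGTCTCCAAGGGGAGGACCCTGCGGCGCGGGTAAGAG

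Each of the 2 windows held the CCAAT motif once, and GGGCGG occurred 1 time in the Col4a1 window and 3 times in the Col4a2 window, counting both strands. Across the 38 windows that RefSeq gave for 35 of the 44 collagen genes, 13 held CCAAT, compared with 37.4% of all 32851 promoter windows, 23 held GGGCGG, compared with 35.7%, and 5 held TATAAA, compared with 13.6%. These matches describe letters in the windows and nothing more.

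Col4a1 was the highest or joint highest collagen of lung, kidney and heart. It stood at 328.9, 371.7 and 266.5 TPM in the untreated lungs, 117.7, 113.9 and 72.81 TPM in the kidneys, 68.13, 104.3 and 39.75 TPM in the hearts and 6.501, 8.163 and 12.82 TPM in the livers. Lungs lay above and livers below every other library, while kidneys and hearts overlapped. Lung exceeded kidney by 1.27 ± 0.35 on the log2 scale (SE, edgeR adjusted p = 0.00121) and heart by 0.90 ± 0.34 (edgeR adjusted p = 0.0188), a call over heart that was lost without untreated replicate 1 or 3 (0.77 and 0.75, edgeR adjusted p = 0.122 and 0.11). The difference of heart from kidney did not pass (0.37 ± 0.34, edgeR adjusted p = 0.35), and heart exceeded liver by 2.80 ± 0.36 (edgeR adjusted p = 2.51e-09). Col4a2 followed it closely, at 303.9 ± 41.4 TPM in lung, 77.0 ± 14.6 TPM in kidney, 59.1 ± 25.4 TPM in heart and 8.18 ± 2.64 TPM in liver (SD, n = 3 each). Over the 68 libraries the ratio of Col4a1 to Col4a2 in TPM had a median of 1.15 and ran from 0.942 to 1.77.

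Col4a3, Col4a4 and Col4a5 encode the chains of the collagen IV found in the filtration membrane of the kidney glomerulus and in alveolar membranes, and mutations in them cause Alport syndrome. Col4a3 (ENSMUSG00000079465, chr1:82564642-82699780, plus strand) and Col4a4 (ENSMUSG00000067158, chr1:82426144-82564570, minus strand) start 72 bases apart on mm39, also head to head. Col4a3 had 57.02, 46.63 and 34.72 TPM in the untreated lungs, 64.13, 66.72 and 37.1 TPM in the kidneys and 0.3948, 1.558 and 0.1955 TPM in the hearts, while the livers had 3, 10 and 5 reads. Lungs and kidneys overlapped and both lay above the hearts. Kidney exceeded liver by 8.37 ± 0.87 (edgeR adjusted p = 9.14e-12) and lung exceeded heart by 4.66 ± 0.69 (edgeR adjusted p = 6.4e-08). The lung to kidney difference was not past the threshold (-0.67 ± 0.57, edgeR adjusted p = 0.309). Col4a4 averaged 27.8 ± 4.14 TPM in lung and 56.2 ± 11.3 TPM in kidney (SD, n = 3 each) and stood at -1.41 ± 0.54 for lung over kidney (edgeR adjusted p = 0.0194), a call lost without any 1 of the 3 untreated replicates (edgeR adjusted p = 0.0509 to 0.0804), without the filter on low counts and with library totals (0.124).

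The partners differed in balance between organs. Over the 17 libraries of an organ, the TPM ratio of Col4a3 to Col4a4 was 1.46 to 2.07 in lung, 0.853 to 1.21 in kidney and 0.231 to 0.725 in heart, ranges that did not overlap. In the hearts these levels were low, and the highest untreated heart value of each, 1.558 TPM for Col4a3 and 2.275 TPM for Col4a4, came from replicate 2, the one with kidney tubule markers at 1100 CPM. Col4a5 averaged 48.2 ± 4.54 TPM in lung, 22.9 ± 2.14 TPM in kidney, 9.53 ± 1.59 TPM in heart and 1.16 ± 0.562 TPM in liver (SD, n = 3 each). Its neighbor Col4a6 was lower in every organ, with 6.88 ± 0.753 TPM in lung as its highest mean. All 6 collagen IV genes passed as higher in lung, heart and kidney than in liver and as higher in lung than in heart, while between lung and kidney 4 passed as higher in lung and 1, Col4a4, as lower. Some of these calls were lost when 1 replicate was left out. Col4a3 missed the threshold for heart over liver without replicate 2 of each organ, which leaves out the heart with tubule markers (2.26, edgeR adjusted p = 0.103). Col4a2 missed it for lung over heart without replicate 1 or 3 (log2 differences of 0.99 and 0.90), as Col4a1 did, and Col4a5 for lung over kidney without any 1 of the 3 (edgeR adjusted p = 0.0528 to 0.0835).

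The fibrillar collagens I and III, the main proteins of connective tissue fibers, were highest in lung. Col1a1 (ENSMUSG00000001506, chr11:94827050-94843868, plus strand, mm39) had 134.6, 183.6 and 145.0 TPM in the untreated lungs, 35.04, 36.12 and 23.79 TPM in the hearts, 29.1, 25.63 and 12.97 TPM in the kidneys and 1.637, 5.429 and 4.749 TPM in the livers. Each neighboring pair passed in the fit over all libraries: lung over heart by 1.02 ± 0.45 (edgeR adjusted p = 0.0422), heart over kidney by 1.37 ± 0.45 (edgeR adjusted p = 0.00791) and kidney over liver by 1.45 ± 0.46 (edgeR adjusted p = 0.00581). The first call was lost without any 1 of the 3 untreated replicates (0.92 to 1.08, edgeR adjusted p = 0.085 to 0.153). Heart over kidney was lost without replicate 3 (edgeR adjusted p = 0.0604) and with library totals (0.0851), and kidney over liver without replicate 1 (0.90, edgeR adjusted p = 0.181). Col1a2 (ENSMUSG00000029661, chr6:4504814-4541544, plus strand), which supplies the other chain of collagen I, averaged 108.5 ± 16.6 TPM in lung, 21.9 ± 3.17 TPM in heart, 25.8 ± 3.74 TPM in kidney and 3.85 ± 1.14 TPM in liver (SD, n = 3 each). The Col1a1 to Col1a2 ratio in TPM had medians of 1.44 in lung, 1.29 in heart, 0.832 in kidney and 0.918 in liver. Its size depends on the deposited gene lengths, 6563 bases for Col1a1 and 12426 for Col1a2. It is a ratio of RNA and does not give the balance of chains in the protein.

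Col3a1 (ENSMUSG00000026043, chr1:45350698-45388866, plus strand), the collagen of distensible tissues such as vessel walls, had 145.8, 214.3 and 146.7 TPM in the lungs, 49.67, 56.26 and 27.27 TPM in the hearts, 24.55, 22.81 and 12.31 TPM in the kidneys and 6.012, 9.892 and 10.43 TPM in the livers. The heart value exceeded that of kidney (2.04 ± 0.37, edgeR adjusted p = 4.98e-06), while lung over heart (0.66 ± 0.36, edgeR adjusted p = 0.101) and kidney over liver (0.12 ± 0.36, edgeR adjusted p = 0.809) did not pass. Lung over heart did pass with DESeq2 (0.78, adjusted p = 0.043), with library totals (1.55), with organ means over all 5 groups (0.66) and over the injected groups without libraries carrying another organ (0.60). Kidney over liver passed with library totals (1.01, edgeR adjusted p = 0.0159). Collagen V, which nucleates fibrils and sets their width, was lower: Col5a1 reached 19.5 ± 5.35 TPM and Col5a2 19.5 ± 3.68 TPM in lung (SD, n = 3 each). Col5a3 departed from the pattern, with 3.97 ± 2.27 TPM in heart, 2.18 ± 1.00 TPM in lung, 0.657 ± 0.240 TPM in kidney and 0.681 ± 0.211 TPM in liver (SD, n = 3 each), and was lower in lung than in heart by -2.16 (edgeR adjusted p = 1.08e-05). The cartilage fibrillar genes Col2a1, Col11a1 and Col11a2 stayed under 0.3 TPM in the mean of every untreated organ.

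Collagen VI, which forms beaded filaments around cells, was also highest in lung. Col6a1 (ENSMUSG00000001119, chr10:76544626-76562002, minus strand, mm39) had 156.4, 201.9 and 167.5 TPM in the lungs, 38.31, 45.7 and 24.4 TPM in the hearts, 21.87, 23.53 and 17.6 TPM in the kidneys and 3.289, 5.744 and 6.746 TPM in the livers. The 4 organs formed separate ranges. The neighbors differed by 1.00 ± 0.25 for lung over heart (edgeR adjusted p = 0.000359), 1.66 ± 0.25 for heart over kidney (edgeR adjusted p = 1.07e-07) and 0.95 ± 0.25 for kidney over liver (edgeR adjusted p = 0.00104). Col6a2 averaged 78.8 ± 14.8 TPM and Col6a3 25.4 ± 4.93 TPM in lung (SD, n = 3 each). Col6a4 and Col6a5 were at most 0.211 TPM in the mean of any organ, and Col6a6 was highest in heart, at 1.02 ± 0.553 TPM (SD, n = 3).

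Col18a1 (ENSMUSG00000001435, chr10:76888012-77002382, minus strand, mm39), a basement membrane collagen that carries heparan sulfate chains, was the main collagen of liver. It had 194.7, 214.0 and 358.4 TPM in the untreated livers, 113.7, 103.4 and 86.55 TPM in the kidneys, 19.56, 27.42 and 24.45 TPM in the lungs and 30.29, 8.899 and 19.94 TPM in the hearts. It took 79.2% of liver collagen TPM, and the next liver collagen, Col14a1, stood at 13.8 ± 7.77 TPM (SD, n = 3). Liver lay above kidney, and kidney above both heart and lung, in every library. Kidney was lower than liver by -2.38 ± 0.42 (edgeR adjusted p = 2.64e-06), heart lower than kidney by -1.54 ± 0.41 (edgeR adjusted p = 0.00098) and lung lower than liver by -4.86 ± 0.47 (edgeR adjusted p = 2.38e-13). The hearts do not give a firm value. Replicates 1 and 3, with 30.29 and 19.94 TPM, were the 2 with hepatocyte markers at 13990 and 11990 CPM, and replicate 2, with 8.899 TPM, had 1040 CPM of these markers. The difference of lung from heart (-0.94 ± 0.40, edgeR adjusted p = 0.035) became 0.30 over the injected groups without the libraries that carried another organ, and -0.52 without untreated replicate 1.

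Col18a1 is transcribed from more than one start, and the counts per gene do not separate them. Both RefSeq windows (build GRCm38.p6, minus strand) are shown, since they differ in the motif GGGCGG, written in capitals where it occurs on either strand:

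Col18a1 first start, chr10:77166481-77166780: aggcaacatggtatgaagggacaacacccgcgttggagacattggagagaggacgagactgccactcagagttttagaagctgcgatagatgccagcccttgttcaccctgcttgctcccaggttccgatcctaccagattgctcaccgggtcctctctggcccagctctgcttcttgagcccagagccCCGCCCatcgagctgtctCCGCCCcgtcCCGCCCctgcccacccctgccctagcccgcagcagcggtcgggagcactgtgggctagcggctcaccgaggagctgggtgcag

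Col18a1 second start, chr10:77113656-77113955: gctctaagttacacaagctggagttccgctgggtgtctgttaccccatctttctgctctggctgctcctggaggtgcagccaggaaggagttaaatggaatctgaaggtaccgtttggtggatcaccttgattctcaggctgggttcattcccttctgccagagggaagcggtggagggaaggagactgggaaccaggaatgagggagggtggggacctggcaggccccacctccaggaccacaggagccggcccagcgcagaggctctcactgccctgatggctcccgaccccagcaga

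The first window held GGGCGG 3 times and CCAAT once, and the second held neither. Col15a1, the other multiplexin, which lies between basement membranes and the matrix beneath, had its highest level in heart: 28.82, 39.69 and 14.28 TPM in the hearts, 20.9, 23.67 and 11.79 TPM in the kidneys, 6.243, 13.73 and 8.266 TPM in the lungs and 2.11, 3.384 and 3.846 TPM in the livers. Heart and kidney overlapped in TPM but differed in the scaled test (1.44 ± 0.30, edgeR adjusted p = 4.73e-05). Lung was lower than heart by -2.83 ± 0.32 (edgeR adjusted p = 3.41e-11).

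Among the fibril-associated collagens, Col14a1, which decorates collagen I fibers, averaged 22.8 ± 3.57 TPM in kidney, 19.2 ± 2.29 TPM in lung, 13.8 ± 7.77 TPM in liver and 7.23 ± 1.65 TPM in heart (SD, n = 3 each). It was lower in lung than in liver on the TMM scale by -0.94, but higher by 0.38 with library totals, so no direction can be given. Col12a1 and Col16a1 had their highest means in lung, at 8.06 ± 0.865 and 11.7 ± 1.95 TPM (SD, n = 3 each). For Col16a1 the call of lung over kidney (0.86, edgeR adjusted p = 0.0401) was lost without untreated replicate 1, 2 or 3. The transmembrane collagens set lung apart: Col23a1 had 30.09, 29.65 and 28.12 TPM and Col13a1 25.23, 23.49 and 24.72 TPM in the lungs, whereas the highest means elsewhere were 1.90 TPM for Col23a1 in kidney and 1.53 TPM for Col13a1 in liver. Col23a1 exceeded kidney by 3.55 ± 0.46 in lung (edgeR adjusted p = 1.74e-09). Of the hexagonal network collagens, Col8a2, first known from the cornea, reached 16.1 ± 3.59 TPM in lung (SD, n = 3), and lung exceeded heart by 2.12 (edgeR adjusted p = 9.07e-07). Col26a1 was highest in kidney at 1.25 ± 0.339 TPM (SD, n = 3), with 0 reads in the untreated livers and -3.50 ± 0.45 for lung over kidney (edgeR adjusted p = 5.03e-09). Col9a1, Col11a1, Col19a1, Col24a1 and Col25a1 were under 0.1 TPM in all 4 untreated organs and are taken as not detected at that level.

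Likeness between genes was examined for Col1a1 and Col4a1. After each organ's mean was subtracted, log2(TPM + 1) of Col1a1 over the 68 libraries correlated best with Col1a2 (Pearson r = 0.948), Col6a1 (0.913), Col6a2 (0.9), Loxl1 (0.88), a collagen and elastin cross-linking oxidase, and Col3a1 (0.878). Col4a1 correlated best with Col4a2 (0.961), followed by Myo18a (0.912), Sptan1 (0.911), Map4 (0.906) and Prrc2a (0.904), which are not matrix genes. These values describe libraries that share organ, depth and handling.

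No collagen passed the edgeR test for Egf against vehicle in any organ at either time. Log2 fold changes have Egf on top, and levels are CPM scaled by TMM within the organ. The tested collagens numbered 36 in lung, 31 in heart, 28 in kidney and 21 in liver, and the rest were under the filter on low counts. The counts of 0 stood against 0.211% of all genes called at 2 h and 0.0128% at 6 h in heart, 0.84% and 0% in lung, 0.256% and 0% in kidney, and 3.92% and 0.0883% in liver. With so few calls over all genes, a count of 0 among 21 to 36 collagens is near the background in each. Unadjusted p was under 0.05 for 1 collagen at 2 h and 6 at 6 h in heart, 1 and 2 in lung, 0 and 2 in kidney, and 1 and 7 in liver. Here and below, such counts are given without the share of all genes, so they cannot be read against a background. DESeq2 called 1 collagen in heart at 6 h (Col6a3, adjusted p = 0.0207) and 0 in the other 7 comparisons. Summed over the 44 genes, collagen RNA at 6 h came to 280.8 to 547.7 TPM in Egf hearts and 239.0 to 364.5 TPM in vehicle hearts, and to 179.1 to 445.6 TPM in Egf livers and 184.0 to 246.1 TPM in vehicle livers, overlapping ranges that were not tested. The spread between libraries limits these tests, with a common biological coefficient of variation of 0.3887 in heart, 0.2827 in lung, 0.2243 in liver and 0.1921 in kidney.

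**Figure D4:**
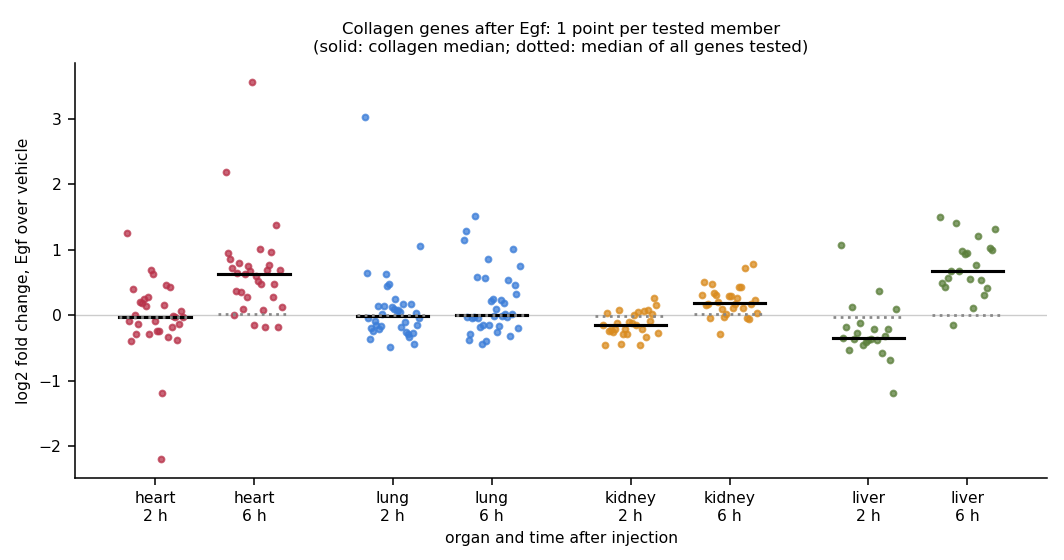
Log2 fold change of Egf over vehicle for every tested collagen (points) in the 4 organs at 2 h and 6 h, with a solid line at the median of the collagens and a dotted line at the median of all genes tested. No point passes an adjusted p under 0.05; the collagen medians at 6 h lie at 0.63 in heart and 0.68 in liver.

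In heart at 6 h most collagens were on the positive side, 28 of 31, with a median log2 fold change of 0.63 against 0.02 over all genes, and none passed. Col6a3, which carries the long chain of collagen VI, had the smallest p. It stood at 57.19, 39.85, 32.89 and 50.32 CPM in the Egf hearts, against 20.43, 16.85 and 14.46 CPM in the vehicle hearts, so the groups did not overlap and all 4 Egf libraries were above (1.39 ± 0.33, edgeR adjusted p = 0.466). At 2 h the same gene had 17.93, 16.66, 18.68 and 12.59 CPM with Egf, against 18.87, 12.74 and 32.48 CPM with vehicle. Untreated hearts had 22.8, 42.82 and 17.72 CPM, a range that overlaps the Egf hearts at 6 h.

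Col5a2, a chain of collagen V, had 30.51, 19.99, 17.7 and 29.49 CPM in Egf hearts at 6 h, against 16.36, 11.68 and 14.86 CPM in vehicle hearts (0.77 ± 0.27, edgeR adjusted p = 0.466). Col5a3 had 13.51, 11.51, 8.768 and 19.12 CPM with Egf, against 5.782, 7.866 and 6.735 CPM with vehicle (0.96 ± 0.37, edgeR adjusted p = 0.466). In both the Egf range lay above the vehicle range. Counting all members, 6 of 31 (19.4%) had every Egf library above every vehicle library, against 4.4% of all genes: Col6a3, Col5a2, Col5a3, Col8a1, Col13a1 and Col2a1, the last 3 named after their values were seen. Col2a1 was at most 0.129 CPM in these Egf hearts and 0 in the vehicle hearts. Collagens varied together across hearts (Pearson r = 0.92 for Col1a1 with Col1a2), so members are not separate observations. Here and below, such shares of members were not compared with those of all genes by a test. Col6a3, Col5a2 and Col5a3 were named for their small p on the same values, so their separation adds no support. Col4a1 had 301.3, 228.6, 158.0 and 395.7 CPM with Egf, against 188.8, 192.8 and 155.5 CPM with vehicle, overlapping groups (0.60), and Col1a1 and Col3a1 stood at 0.36 and -0.14.

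Among these hearts, 2 of the 4 Egf and 1 of the 3 vehicle libraries met the rule for carrying another organ (10 times the heart median). Egf replicate 2 and vehicle replicates 1 and 3 fell short of it but held hepatocyte markers at 5108, 1461 and 2575 CPM. Without all heart libraries that met the rule, 26 of 32 tested collagens were positive with a median of 0.53, and Col6a3 stood at 1.37 (edgeR adjusted p = 0.989). That fit still held libraries with hepatocyte markers in both groups. Leaving out 1 library at a time or changing the fit kept the median between 0.44 and 0.81. Fibroblast markers summed to 687.3 to 901.3 CPM in the Egf hearts and 633.5 to 893.6 CPM in the vehicle hearts, and endothelial markers to 443.6 to 787.8 CPM in the Egf hearts and 411.5 to 652.1 CPM in the vehicle hearts. Their part in the collagen values was not tested.

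In heart at 2 h there were 14 collagens positive, 17 negative and a median of -0.02, which ran from -0.18 to 0.17 over the settings run. Without vehicle replicate 3 the count was 25 positive of 32. Fibroblast markers summed to 830.5 to 945.1 CPM in these Egf hearts and 603.1 to 734.8 CPM in the vehicle hearts, without overlap, and their part in the collagen values was not tested. The smallest p was that of Col4a3, with 1.475, 1.211, 2.103 and 0.9877 CPM in Egf hearts, against 15.49, 2.456 and 1.935 CPM in vehicle hearts (-2.19 ± 0.97, edgeR adjusted p = 0.635). Col4a4 had 4.057, 3.778, 8.015 and 3.259 CPM with Egf, against 24.04, 3.608 and 4.867 CPM with vehicle (-1.18 ± 0.77, edgeR adjusted p = 0.681). The high vehicle value of both came from replicate 1, the heart library with kidney tubule markers at 2870 CPM, and the other libraries of both groups overlapped. Col5a2 stood at 0.44 ± 0.27 (edgeR adjusted p = 0.66). In 0 of the 31 collagens did the groups separate at 2 h, against 4.21% of all genes with Egf above and 2.59% with Egf below.

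**Figure D5:**
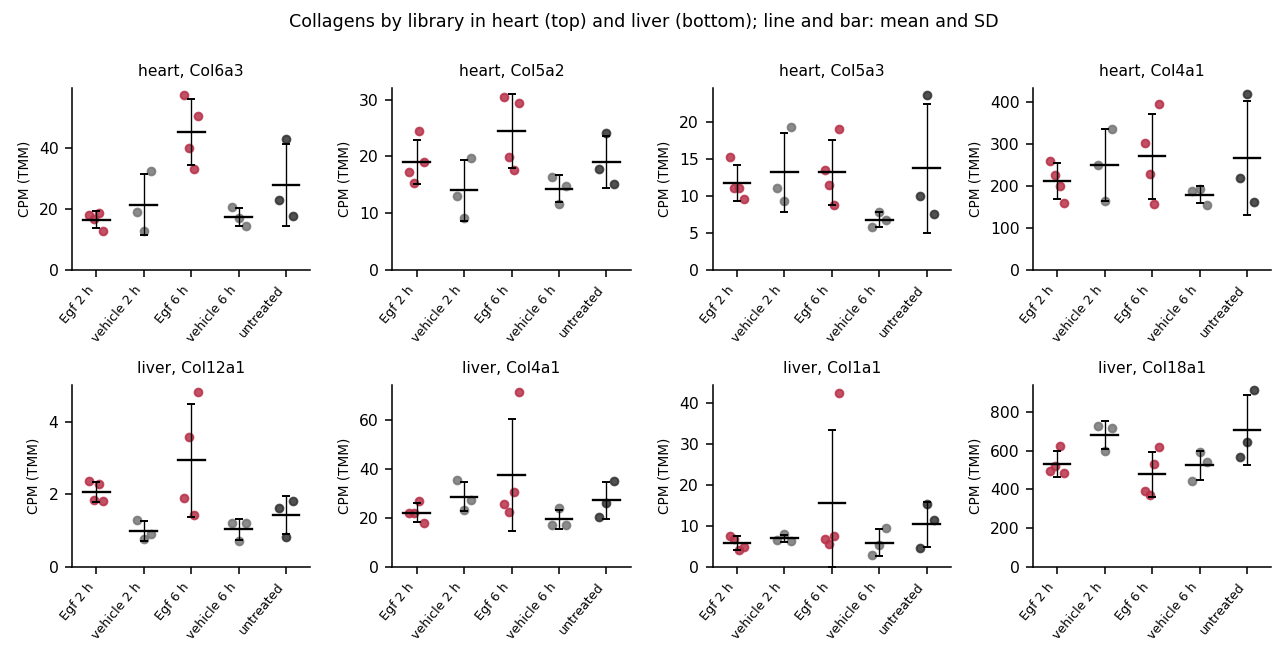
TMM-scaled CPM of 4 collagens in heart (Col6a3, Col5a2, Col5a3, Col4a1) and 4 in liver (Col12a1, Col4a1, Col1a1, Col18a1) in every library by group, with the group mean and SD (lower bars cut at 0) and a y axis per panel. Col6a3 at 6 h lies at 32.89 to 57.19 CPM in Egf hearts and 14.46 to 20.43 CPM in vehicle hearts; 1 liver library at 6 h stands apart for Col1a1 at 42.33 CPM.

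Liver at 6 h also had nearly all collagens on the positive side, 20 of 21 with a median of 0.68 against 0.01 over all genes, and none passed. A large part of this rests on 1 library. Col1a1 had 6.849, 5.613, 7.469 and 42.33 CPM in the Egf livers, against 2.914, 5.172 and 9.527 CPM in the vehicle livers (1.41 ± 0.66, edgeR adjusted p = 0.58). Col3a1 had 15.31, 23.84, 28.01 and 91.15 CPM with Egf, against 12.26, 19.54 and 30.58 CPM with vehicle (0.93 ± 0.47). In both the first 3 Egf libraries lay within or near the vehicle range and replicate 4 lay far above it. Without replicate 4, 14 of 20 collagens were positive with a median of 0.14, and Col1a1 stood at 0.18 (edgeR adjusted p = 0.99). That library also had the highest stromal markers of the Egf livers: the pericyte and smooth muscle list summed to 118 CPM there, 39.4 to 46.1 CPM in the other Egf livers and 25.1 to 48.6 CPM in the vehicle livers. The fibroblast list summed to 203 CPM there, 90.5 to 133 CPM in the other Egf livers and 60.2 to 120 CPM in the vehicle livers, and the endothelial list to 185 CPM there, 68.4 to 98.5 CPM in the other Egf livers and 74.8 to 99.6 CPM in the vehicle livers. The hepatic stellate list summed to 288 CPM there, 129 to 188 CPM in the other Egf livers and 126 to 187 CPM in the vehicle livers. Their part in the result was not tested.

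Col12a1, a FACIT collagen that links fibrils to the surrounding matrix, was the liver member with the smallest p at both times. At 2 h it had 2.354, 1.849, 2.268 and 1.822 CPM in Egf livers, against 1.292, 0.7481 and 0.9075 CPM in vehicle livers (1.08 ± 0.41, edgeR adjusted p = 0.191). At 6 h it had 1.893, 3.582, 1.432 and 4.818 CPM with Egf, against 1.209, 0.7023 and 1.191 CPM with vehicle (1.5 ± 0.40, edgeR adjusted p = 0.258), and 1.15 without Egf replicate 4. The Egf libraries lay above the vehicle libraries at each time, in 4 of 4. It was the one collagen of the 21 (4.76%) with no overlap in this direction, against 7.04% of all genes at 2 h and 4.52% at 6 h. Its level is low in liver, and neither difference passed.

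Col4a1 at 6 h had 25.45, 22.35, 30.62 and 71.54 CPM in Egf livers, against 16.93, 23.94 and 17.16 CPM in vehicle livers (0.96 ± 0.33, edgeR adjusted p = 0.438; 0.44 without replicate 4). Col27a1, a fibrillar collagen of developing cartilage, had 1.448, 2.78, 2.179 and 4.001 CPM with Egf, against 1.594, 1.149 and 1.191 CPM with vehicle (0.99 ± 0.34, edgeR adjusted p = 0.438). Both pairs of groups overlapped. Col18a1, the main collagen of liver, had 390.8, 371.7, 529.9 and 620.2 CPM in Egf livers at 6 h, against 444.9, 593.5 and 540.7 CPM in vehicle livers (-0.14 ± 0.19, edgeR adjusted p = 0.83). It was the 1 collagen of the 21 on the negative side.

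In liver at 2 h 17 of 21 fold changes were negative, with a median of -0.34. Col18a1 had 495.6, 520.3, 627.8 and 485.3 CPM in Egf livers, against 730.7, 602.0 and 718.9 CPM in vehicle livers, overlapping by 1 library on each side (-0.36 ± 0.19, edgeR adjusted p = 0.418). Col15a1 had 3.473, 2.634, 2.583 and 4.335 CPM with Egf, against 6.531, 2.992 and 4.677 CPM with vehicle (-0.54 ± 0.31, edgeR adjusted p = 0.473). Col1a1, Col3a1, Col4a1 and Col6a1 stood at -0.27, -0.41, -0.37 and -0.31, and Col1a2 and Col4a2 at -0.12 and -0.37. The median stayed between -0.48 and -0.22 over the settings run.

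In lung 18 collagens lay on each side at 2 h and again at 6 h, with medians of -0.01 and 0.00. These splits depended on single libraries: without vehicle replicate 3 they became 9 positive and 29 negative at 2 h and 29 positive and 8 negative at 6 h, without Egf replicate 3 10 positive and 26 negative at 2 h, and without Egf replicate 2 27 positive and 9 negative at 6 h. The medians ran from -0.13 to 0.12 at 2 h and from -0.12 to 0.22 at 6 h. At 2 h, Col3a1 had 345.7, 292.1, 411.6 and 427.8 CPM in Egf lungs, against 571.8, 510.5 and 463.3 CPM in vehicle lungs (-0.48 ± 0.22, edgeR adjusted p = 0.549). Col13a1 had 29.45, 31.98, 31.23 and 35.9 CPM with Egf, against 48.54, 37.67 and 37.23 CPM with vehicle (-0.36 ± 0.17, edgeR adjusted p = 0.617). In these and in Col6a3 every Egf library lay below every vehicle library, 3 of 36 collagens (8.33%) against 3.96% of all genes, while 0 lay above, against 5.65%. Col6a1 stood at -0.25 ± 0.14 (edgeR adjusted p = 0.715). At 6 h the 3 smallest p were those of Col6a3 (0.53 ± 0.21, edgeR adjusted p = 0.902), Col13a1 (-0.38 ± 0.18, edgeR adjusted p = 0.919) and Col4a5 (-0.25 ± 0.14, edgeR adjusted p = 0.946), each with overlapping groups, and 0 of the 36 collagens separated (1.97% of all genes with Egf above and 2.91% below). Col18a1 had 47.97, 34.52, 208.0 and 57.42 CPM in Egf lungs at 6 h, against 50.95, 48.18 and 75.32 CPM in vehicle lungs, and its value of 208.0 CPM belongs to the library with hepatocyte markers at 25550 CPM.

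In kidney, the organ with the smallest coefficient of variation, 23 of 28 fold changes were positive at 6 h, with a median of 0.19 against 0.02 over all genes, and the median ran from 0.12 to 0.38 over the settings run. Stromal markers were also higher in the Egf kidneys, without overlap: fibroblast markers summed to 115.9 to 132.1 CPM with Egf and 102.7 to 109.1 CPM with vehicle, pericyte and smooth muscle markers to 202.7 to 219.7 CPM with Egf and 148 to 173.9 CPM with vehicle, and endothelial markers to 318.3 to 362.3 CPM with Egf and 247.3 to 302.8 CPM with vehicle. Their part in the collagen values was not tested. Col18a1, a basement membrane collagen high in kidney, had 271.3, 234.9, 244.0 and 296.6 CPM in Egf kidneys, against 191.4, 203.8 and 224.9 CPM in vehicle kidneys (0.34 ± 0.16, edgeR adjusted p = 0.787). Col12a1 had 10.09, 8.52, 8.631 and 8.287 CPM with Egf, against 7.199, 6.517 and 7.743 CPM with vehicle (0.31 ± 0.14, edgeR adjusted p = 0.782). Those were the 2 of 28 collagens (7.14%) whose Egf libraries all lay above the vehicle libraries, against 5.33% of all genes. Col5a1 stood at 0.43 ± 0.27 (edgeR adjusted p = 0.813). At 2 h, 19 of 28 were negative with a median of -0.15, which ran from -0.33 to 0.09 over the settings run: without vehicle replicate 1, 18 of 28 were positive, and without vehicle replicate 2, 0 of 28. The smallest p there were those of Col4a6 (-0.45 ± 0.29, edgeR adjusted p = 0.839), Col18a1 (-0.21 ± 0.16, edgeR adjusted p = 0.882) and Col3a1 (-0.29 ± 0.25, edgeR adjusted p = 0.929), and 0 of the 28 separated (3.29% of all genes with Egf above and 3.02% below).

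The Egf effect at 6 h was also tested against that at 2 h, and edgeR called 0 collagens in each organ, where 1.03% of all genes were called in liver, 0.0417% in lung, 0.0192% in kidney and 0.0128% in heart. Unadjusted p was under 0.05 for 4 collagens in liver, 4 in heart, 3 in kidney and 1 in lung, and DESeq2 called 0 in each. The later minus the earlier effect was positive for 21 of 21 collagens in liver (median 0.93), 27 of 28 in kidney (0.32), 25 of 31 in heart (0.60) and 21 of 36 in lung (0.07). The directions of all genes are not given beside these, and collagens that vary together are not separate observations. Without kidney vehicle 2 h replicate 1 the kidney count was 18 of 28 with a median of 0.08. Without liver Egf 6 h replicate 4 the liver count was 18 of 20 with a median of 0.32. Without the heart libraries that carried another organ the heart count was 20 of 32 with a median of 0.19.

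Between organs, the Egf effect at 2 h differed for 1 of the 40 tested collagens, Col25a1 (edgeR adjusted p = 0.0262), against 2.19% of all genes, so the share is near the background. Col25a1, a transmembrane collagen known from brain, was among the genes under 0.1 TPM, and its liver libraries held 1 read in all with Egf and 25 with vehicle. At 6 h edgeR called 0 against 0.048% of all genes. Unadjusted p was under 0.05 for 3 collagens at 2 h and 1 at 6 h. DESeq2 called 0 at both times.

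Injection itself was examined by setting vehicle against untreated mice. edgeR called 0 collagens in the 8 comparisons, against 0.0128% (2 h) and 0.0192% (6 h) of all genes in heart, 0.0656% and 0.101% in lung, 0.0256% and 0.211% in kidney and 0.155% and 0.67% in liver. Unadjusted p was under 0.05 for 2 and 4 collagens in heart, 0 and 5 in lung, 10 and 9 in kidney and 1 and 0 in liver, and DESeq2 called 2, both in kidney at 2 h. Neither these counts of unadjusted p nor the directions that follow are set beside those of all genes. Collagens also varied together across libraries (Pearson r = 0.948 for Col1a1 with Col1a2), so members are not separate observations. Most fold changes of vehicle over untreated were negative. In heart they were negative for 25 of 31 collagens at 2 h (median -0.22) and 30 at 6 h (-0.56), and in lung for 29 of 36 at 2 h (-0.14) and 33 at 6 h (-0.28). In kidney they were negative for 24 of 28 at 2 h (-0.34) and 25 at 6 h (-0.40), and in liver for 17 of 21 at 2 h (-0.42) and 19 at 6 h (-0.51). Over the settings run the medians stayed negative except in lung at 2 h, where they ran from -0.25 to 0.07. Heart at 2 h came to -0.02 without vehicle replicate 2 and -0.04 without untreated replicate 2, and kidney at 2 h to -0.14 without vehicle replicate 2. Kidney Col1a2 had 87.56, 60.27 and 65.82 CPM with vehicle at 2 h, against 124.4, 116.7 and 97.01 CPM in untreated kidneys (-0.66 ± 0.16, edgeR adjusted p = 0.175, and -0.64 with an adjusted p of 0.0258 by DESeq2). Kidney Col6a1 had 25.23, 17.25 and 21.86 CPM with vehicle, against 32.75, 36.8 and 27.54 CPM untreated (-0.59 ± 0.16, edgeR adjusted p = 0.209, and -0.57 with an adjusted p of 0.0476 by DESeq2). In both genes the groups did not overlap. The share of all genes that separate in this comparison was not computed. Both genes were named because DESeq2 called them on the same values, so the separation adds no support. Stromal markers were also lower in these vehicle kidneys at 2 h, without overlap: fibroblast markers summed to 76.18 to 123.8 CPM with vehicle and 134.3 to 170.5 CPM untreated, pericyte and smooth muscle markers to 129.9 to 186.6 CPM with vehicle and 207.3 to 230.5 CPM untreated, and endothelial markers to 228.9 to 321.4 CPM with vehicle and 335.2 to 347.3 CPM untreated. The 3 vehicle kidneys at 6 h also lay below the untreated ones in each of these lists. The part of these cell types in the collagen values was not tested. These comparisons share their vehicle libraries with those of Egf, so the values of the 2 sets are not independent.

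The proteins that make, process and remove collagen were examined through 4 lists: folding and export (18 tested in heart, kidney and liver and 19 in lung), procollagen processing and cross-linking (12 in heart, lung and kidney and 10 in liver), breakdown (12, 11, 11 and 7 in heart, lung, kidney and liver) and collagen receptors (9, 9, 6 and 5). Of these, 2 genes passed for Egf against vehicle: 1 of the 7 breakdown genes tested in liver at 2 h, where 3.92% of all genes were called, and 1 of the 11 tested in lung at 2 h, where 0.84% were. Single calls of this kind do not set the lists apart from that background. Mmp14, a membrane-bound protease that cleaves fibrillar collagen, was lower in Egf livers at 2 h, at 19.2 ± 3.83 CPM with Egf (SD, n = 4) and 31.5 ± 3.18 CPM with vehicle (SD, n = 3), a difference of -0.71 ± 0.19 (edgeR adjusted p = 0.044). At 6 h it stood at 48.3 ± 13.4 CPM with Egf (SD, n = 4) and 33.2 ± 2.53 CPM with vehicle (SD, n = 3), which did not pass (0.54 ± 0.19, edgeR adjusted p = 0.46), but the change of the effect between the times did (1.26 ± 0.27, edgeR adjusted p = 0.027). Mmp8, the neutrophil collagenase, was higher in Egf lungs at 2 h, at 11.96 ± 2.99 CPM (SD, n = 4), against 5.11 ± 1.24 CPM with vehicle (SD, n = 3), a difference of 1.22 ± 0.27 (edgeR adjusted p = 0.039). The neutrophil marker list, which holds Mmp8 itself, summed to 125 to 268.7 CPM in those Egf lungs and 72.57 to 114.7 CPM in the vehicle lungs, and its part in the result was not tested.

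The remaining list members with the smallest p did not pass. In heart at 6 h, Timp1, an inhibitor of matrix metalloproteinases, stood at 1.23 ± 0.24 (edgeR adjusted p = 0.28) and Mmp14 at 0.62 ± 0.14 (edgeR adjusted p = 0.43). In lung at 2 h, Fkbp10, a collagen chaperone of the endoplasmic reticulum, stood at -0.38 ± 0.10 (edgeR adjusted p = 0.10) and Mmp9, a gelatinase, at 0.85 ± 0.22 (edgeR adjusted p = 0.11). In liver at 6 h, P3h1, a prolyl 3-hydroxylase, stood at 0.72 ± 0.23 (edgeR adjusted p = 0.40) and Timp3 at 0.80 ± 0.20 (edgeR adjusted p = 0.22). In heart at 2 h, Lox, which cross-links collagen, stood at 0.81 ± 0.25 (edgeR adjusted p = 0.41). Loxl4, another cross-linking oxidase, passed in the vehicle comparison of liver at 6 h, with 0.886 ± 0.127 CPM with vehicle and 4.28 ± 2.14 CPM untreated (SD, n = 3 each), a difference of -2.27 ± 0.45 (edgeR adjusted p = 0.0243).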

How the data were processed

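The authors deposited 1 table of unnormalized counts per gene, made with HISAT2 2.0.5 and featureCounts 1.5.0-p3 on build mm39, per the submitters' processing notes; the annotation and counting options were not stated in the labels or notes. Per the labels' protocols the polyA libraries were not directional, so reads of overlapping genes such as Col4a1 and Col4a2 at their starts cannot be told apart by strand. Counts were tested with edgeR 4.0.16 in R 4.3.3 (filterByExpr, TMM scaling, robust quasi-likelihood F tests), adjusted over all tested genes by Benjamini-Hochberg and called at an adjusted p under 0.05. Egf against vehicle, vehicle against untreated, and the difference of Egf effects between 2 h and 6 h were fitted per organ over its 17 libraries. Comparisons among organs used 1 fit over all 68 libraries and 20 groups. Fold changes are log2 with the SE implied by the F statistic. TPM were computed from the deposited counts and the deposited gene lengths. Marker sums are CPM of library totals. The procedure was tested on simulated counts. Library totals of 13271813 to 24972005 reads and the spread between libraries set the precision.

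Collagens were named by a rule: the 8 highest in each untreated organ and 7 that were always named (Col1a1, Col1a2, Col3a1, Col4a1, Col4a2, Col6a1 and Col18a1). The rule also took any that passed in an Egf, vehicle or time comparison, and otherwise the 3 with the smallest p per Egf comparison. Others, such as Col8a2, Col16a1, Col23a1 and Col26a1, were named outside this rule for their untreated levels. The members, classes and lists were chosen with earlier results of these data known. A library was taken to carry another organ where that organ's summed markers reached 500 CPM and 10 times the median of its own organ. Alternatives were RLE size factors, no filter, DESeq2 1.42.0, the compared groups alone, replicate or animal blocks, leaving out each replicate, and leaving out libraries that carried another organ. Library totals without TMM and organ means over the injected groups were added after seeing the data. RefSeq promoter windows are on GRCm38.p6 and were matched by symbol; coordinates of the genes are those deposited, on mm39.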

Additional observations from a re-analysis of the deposited data

Results flagged for a closer look

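Of 81 sets of 4 values examined, each a collagen or the collagen sum in 1 Egf group, 8 had 1 library far from the other 3. The criterion was Dixon's at the 95% level, where chance gives about 1 in 20 for independent sets. These sets reuse the same libraries for genes that vary together, and 5 of the 8 came from 1 liver library. The 8 of 81 therefore cannot be set against that rate. In liver Egf 6 h, replicate 4 was the high library for 5 collagens: Col1a1 at 42.3 CPM (others 5.61 to 7.47), Col1a2 at 49 CPM (others 11.6 to 14.1), Col3a1 at 91.2 CPM (others 15.3 to 28), Col4a1 at 71.5 CPM (others 22.3 to 30.6) and Col6a1 at 16.1 CPM (others 5.24 to 6.66). In lung Egf 6 h, Col18a1 had 208 CPM in replicate 3 and 34.5 to 57.4 CPM in the others. In heart Egf 2 h, Col4a4 had 8.01 CPM in replicate 3 and 3.26 to 4.06 CPM in the others, in a library with kidney tubule markers at 354 CPM. In lung Egf 2 h, Col1a2 was low in replicate 2, at 382 CPM with 426 to 433 CPM in the others. The Egf effect of Col25a1 at 2 h differed among the 4 organs (edgeR adjusted p = 0.0262).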

How the results depend on the processing

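Of the counts of called collagens recomputed under other settings, 359 stayed within 1.5 times the reported count and 8 did not. With DESeq2 the calls became 1 in heart for Egf at 6 h, 2 in kidney for vehicle at 2 h and 0 for the Egf effect among organs at 2 h, and without the filter on low counts 1 collagen, Col25a1, was called for Egf in liver at 2 h. The cause was not tested. Leaving out single replicates gave 0 to 1 for the Egf effect among organs at 2 h, where Col25a1 missed the threshold without Egf replicate 2, 3 or 4 (edgeR adjusted p = 0.13, 0.0988 and 0.106) or vehicle replicate 2 (0.295). The other Egf, vehicle and time comparisons gave 0 to 0. Among untreated organs leaving out single replicates gave 32 to 34 collagens for the joint test, 27 to 29 for lung over liver, 25 to 26 for heart over liver, 19 to 23 for kidney over liver, 22 to 23 for lung over kidney, 19 to 25 for lung over heart and 19 to 19 for heart over kidney. Values of named collagens kept their side of the threshold in 2852 recomputations, gained the threshold in 29 and lost it in 37. A change of sign was counted only where the value passed in the reported or the other fit. There were 3 of these: Col14a1 for lung over liver (0.38 with library totals), and Col18a1 for lung over heart (0.0288 over all 5 groups of each organ and 0.30 over the injected groups without libraries carrying another organ). Values that passed in neither fit, as in most Egf, vehicle and time comparisons, were counted among the 2852 even where their sign changed. Heart contrasts of untreated mice have no value without the libraries carrying another organ, which left out all 3 untreated hearts. With the replicate block, the Egf, vehicle and time comparisons called 0 collagens and, with the animal as block, the Egf effect among organs at 2 h called 1. The animal block also moved some calls among untreated organs: the joint test called 34 (without Col10a1), lung over liver 27 (without Col9a2 and Col11a1), heart over kidney 27 (with Col1a2, Col4a6 and Col16a1), lung over heart 27 (with Col3a1, 0.69, edgeR adjusted p = 0.0335) and lung over kidney 28 (with Col14a1, without Col9a2); heart over liver and kidney over liver kept their calls. Same-numbered Egf and vehicle libraries had correlated deviations over 0.1 in 7 of 24 pairs, so the numbers were not taken to pair them. The 5 collagens under 0.1 TPM had few reads.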
